A study of Caenorhabditis elegans with 3 samples.

Results

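The MCM2-7 helicase genes of Caenorhabditis elegans encode the ring that unwinds DNA at replication forks. The 6 genes mcm-2, mcm-3, mcm-4, mcm-5, mcm-6 and mcm-7 were chosen by name among the probes that the platform annotation maps to 1 gene. Each had 1 probe with a value on all 3 arrays, so 6 of the 6 were measured, out of 15168 named genes on the array. The adult sample was RNA of hermaphrodites that the labels mark as adult "w/ emb", read here as carrying embryos, in 3 preparations called preps 1 to 3. The labels give no genotype, strain or age for the adults, and their code TP11 and the number 2 were not interpreted. Each prep was hybridised on its own 2-colour array against wild-type mixed reference RNA, whose make-up the labels do not state. Nothing says that the preps were separate cultures, so p-values cover only the spread among these 3 samples, and that spread may be technical.

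All values below are log2 ratios of adult over reference, with each array centred on its median. A positive ratio means more RNA in the adults. That direction is likely but not settled: the labels list the reference as the first channel and the adults as the second, and name no dyes. The adults were the second channel on every array. A dye effect particular to a probe therefore cannot be told apart from its ratio. A ratio says how much of a transcript the adults held relative to the mixture and gives no level in either.

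The 6 MCM proteins are related AAA+ ATPases that form a hetero-hexamer. The origin recognition complex, CDC-6 and CDT-1 load the ring onto DNA as inactive double rings before S phase, a step called licensing. CDC-45 and the GINS complex then join each ring to make the active helicase. In an adult hermaphrodite most somatic cells have left the cell cycle, apart from rounds of endoreduplication in some tissues, whereas the distal germ line and the embryos inside the worm replicate their DNA. Oocytes also store proteins and RNA for the fast first cell cycles of the embryo. In these whole-animal extracts the share of dividing cells and the amount of RNA per cell cannot be told apart.

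The RNA of 5 of the 6 genes was more abundant in the adults than in the reference: mcm-2, mcm-7, mcm-4, mcm-6 and mcm-5 were 3.70-fold, 3.35-fold, 3.22-fold, 2.89-fold and 2.37-fold higher. The ratio of the other member, mcm-3, was 1.05-fold and did not pass the test. The mean of each gene was tested against 0 with limma's two-sided moderated test, adjusted by the Benjamini-Hochberg method over the 19710 probes with 3 values, at a threshold of 0.05. By the same rule 16.1% of the 15090 named genes tested were higher. Of the single probes 15.8% were higher and 16.2% lower. The same 5 MCM genes were higher by at least 2-fold, as were 5.63% of the named genes, while 7.63% of the named genes were lower by at least 2-fold.

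The gene mcm-2 encodes the subunit that, with MCM-5, borders the gate through which DNA enters the ring, and in other animals and yeast its tail also binds histones. Its log2 ratio was 2.59 on prep 1, 1.61 on prep 2 and 1.46 on prep 3, and it was the highest of the 6 genes on every array. The mean was 1.89 ± 0.61 (SD, n = 3), with a standard error of 0.23 and adjusted p = 0.00016 by limma. Of the 15090 named genes tested, 54 had a mean further in the same direction.

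The gene mcm-5 encodes the other side of that gate. Its log2 ratio was 1.72 on prep 1, 0.73 on prep 2 and 1.27 on prep 3, with a mean of 1.24 ± 0.49 (SD, n = 3) and limma gave adjusted p = 0.0012. The lowest value of the 5 higher genes on any array was that of mcm-5 on prep 2.

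MCM-4, MCM-6 and MCM-7 form a subcomplex that has helicase activity of its own in vitro in mammals and yeast. For mcm-4, also known as lin-6 and needed for DNA synthesis in the larval cell lineages, the log2 ratio was 2.49 on prep 1, 1.20 on prep 2 and 1.36 on prep 3, with a mean of 1.69 ± 0.70 (SD, n = 3) and limma gave adjusted p = 0.00046. For mcm-6 it was 2.26, 1.19 and 1.15 on preps 1, 2 and 3, with a mean of 1.53 ± 0.63 (SD, n = 3) and adjusted p = 0.0006. Prep 1 was the highest array for both, and their values on preps 2 and 3 lay close together.

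MCM-7 is the subunit that the ubiquitin ligase CUL-2 with LRR-1 marks when the helicase is taken off chromatin at the end of replication in C. elegans. The log2 ratio of mcm-7 was 2.41 on prep 1, 1.49 on prep 2 and 1.33 on prep 3. Its mean was 1.74 ± 0.58 (SD, n = 3), and limma gave adjusted p = 0.00022.

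The gene mcm-3 encodes the subunit through which, in yeast, the ring first docks on the origin recognition complex and Cdc6. Its log2 ratio was 0.15 on prep 1, -0.05 on prep 2 and 0.12 on prep 3. These values lay around 0 with a mean of 0.08 ± 0.11 (SD, n = 3), and the adjusted p in limma was 0.780. The 95% confidence interval of the mean, from limma's moderated standard error of 0.17, ran from -0.30 to 0.45, that is from 0.813-fold to 1.37-fold. The matching intervals of the other 5 genes all began above it, the lowest at 0.79 for mcm-5. With 1 probe for mcm-3 there is no second probe to set beside it, and whether that probe reports the transcript as well as the other probes report theirs was not tested.

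**Figure D1:**
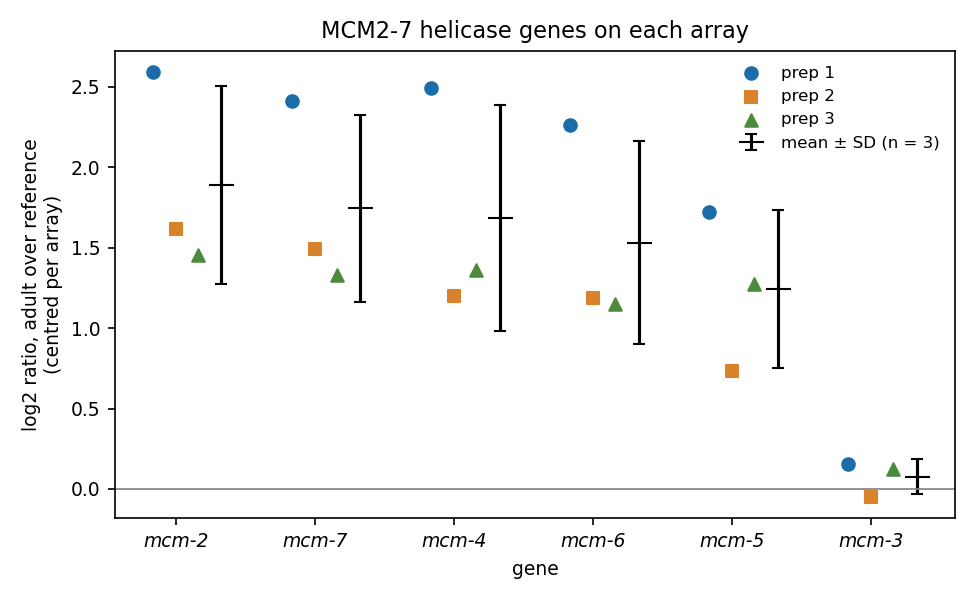
Log2 ratio of adult over reference RNA (vertical axis, centred per array) for the 6 MCM genes, with 1 symbol for each prep and a bar for the mean ± SD over the 3 preps. The values of mcm-3 lie between -0.05 and 0.15, below every value of the other 5 genes, and prep 1 (circles) is the highest array for each gene.

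The order of the means was mcm-2, mcm-7, mcm-4, mcm-6, mcm-5 and mcm-3. Within an array the genes can be set beside each other because each ratio comes from the same pair of RNA samples. Dye effects that differ between probes would still enter such a comparison. All 15 pairs of genes were compared. In 5 of the 15 the ranges over the preps did not overlap, and each of these pairs held mcm-3. Among the 10 pairs without mcm-3 the ranges overlapped in every case. Those ranges pool the arrays, which differed in spread. Compared within each array, 8 of these 10 pairs had the same gene higher on all 3 arrays.

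The gap between mcm-3 and the others was wide on each array. The mean difference of mcm-5 over mcm-3 was 1.17 ± 0.39 (SD, n = 3) on the log2 scale, a 2.24-fold difference in ratio, and that of mcm-2 over mcm-3 was 1.81 ± 0.57, a 3.51-fold difference. For mcm-2, mcm-7, mcm-4 and mcm-6 the gap was narrowest on prep 3, from 1.03 for mcm-6 to 1.33 for mcm-2. The narrowest gap of all was on prep 2, where mcm-5 still lay 0.78 above mcm-3. With 3 preps a two-sided exact sign-flip permutation test of such a difference cannot go below p = 0.25, which is the value for this pair, so no pair was called by a test.

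Neighbours in the order among the 5 higher genes lay close together. The gene mcm-2 lay above mcm-7 by 0.14 ± 0.03 (SD, n = 3), with the same sign on all 3 arrays, but once a running median in probe ID order was subtracted mcm-7 (1.84) lay above mcm-2 (1.72). The difference of mcm-7 over mcm-4 was 0.06 ± 0.20 and that of mcm-6 over mcm-5 was 0.29 ± 0.36, both within their spread, and both changed sign between arrays. The difference of mcm-4 over mcm-6 was 0.15 ± 0.12, with a smallest value of 0.02 on prep 2. The pair at the ends of this group, mcm-2 over mcm-5, differed by 0.64 ± 0.40, with 0.87, 0.88 and 0.18 on preps 1, 2 and 3.

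The arrays themselves had different spreads, with robust SDs of the deposited log2 ratios of 0.773, 0.484 and 0.370 on preps 1, 2 and 3. The 5 higher genes averaged 2.29 on prep 1, 1.25 on prep 2 and 1.31 on prep 3, so the array with the highest values was also the one with the widest spread. Among all 19710 probes of the same array, the gene mcm-2 lay above 99.6%, 99.2% and 98.9% of the probes on preps 1, 2 and 3, and mcm-4 above 99.5%, 97.5% and 98.6%. The lowest such placing of the 5 was that of mcm-5 on prep 2, above 91.5% of the probes. The gene mcm-3 lay in the middle of each array, above 58.1%, 45.8% and 63.6% of the probes.

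**Figure D2:**
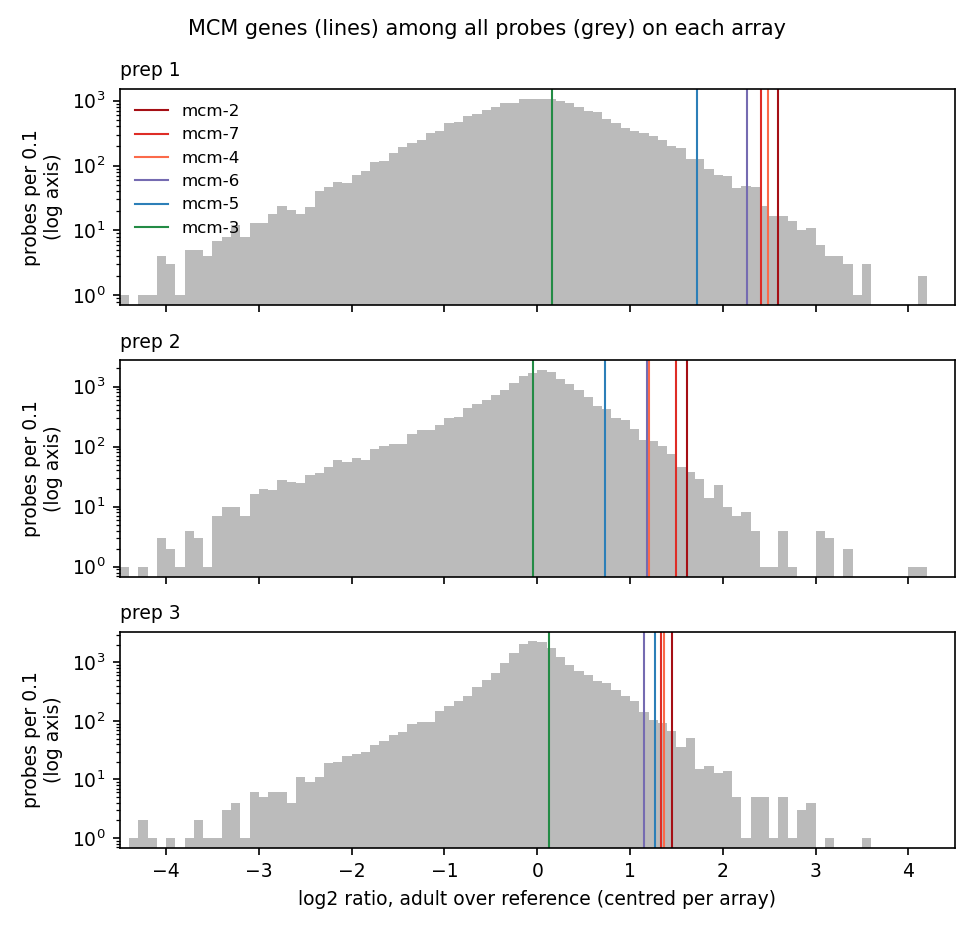
Number of probes per 0.1 of log2 ratio (grey, logarithmic vertical axis) on each of the 3 arrays, with a coloured line at the value of each MCM gene; the few probes in the far tails lie outside the horizontal axis. The line of mcm-3 stands near the peak of each distribution, and the lines of the other 5 genes stand in its upper tail, closer together on prep 3 than on prep 1.

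In units of the robust SD of each array, mcm-2 stood at 3.36, 3.35 and 3.96 on preps 1, 2 and 3, and mcm-5 at 2.23, 1.52 and 3.46. After scaling of the arrays to a common spread the standard error of mcm-2 was 0.15, against 0.23 before, and that of mcm-5 was 0.20, against 0.21 before. Their means were then 1.83 and 1.24, and their adjusted p in limma 0.00028 and 0.0020, against 0.00016 and 0.0012 before. When a preparation was left out, the means of the 5 higher genes were lowest without prep 1, at 1.54 for mcm-2, 1.41 for mcm-7, 1.28 for mcm-4, 1.17 for mcm-6 and 1.00 for mcm-5, and each still passed (adjusted p up to 0.0044 in limma).

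**Figure D3:**
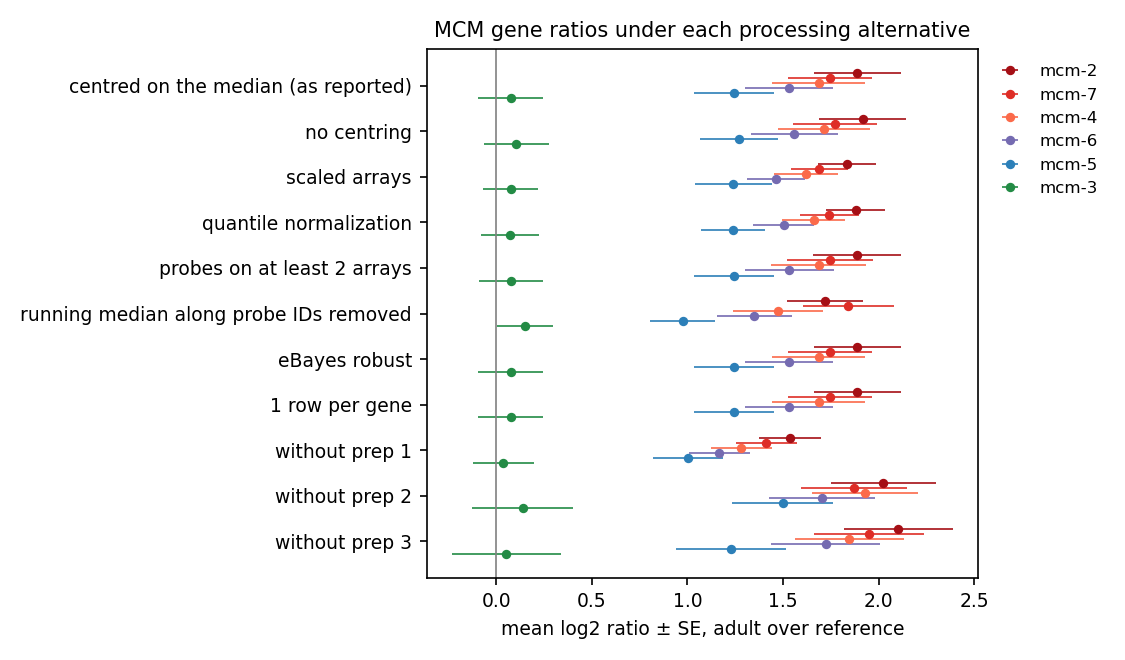
Mean log2 ratio ± standard error of each MCM gene (horizontal axis) under the reported processing and 10 alternatives (rows). In every row mcm-3 lies between 0.04 and 0.15 and the other 5 genes lie at 0.98 or higher.

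Marker lists were set beside the labelled material. They were chosen with earlier results of these data known, so they are no independent check of it. Of all named genes, 16.1% were higher and 17.9% lower. Of 9 oocyte and germ cell genes, 9 were higher, with mean log2 ratios over the list of 2.49, 1.56 and 1.75 on preps 1, 2 and 3. Of 11 eggshell genes 8 were higher, and of 3 yolk genes 1. Of 6 genes switched on early in embryos, 0 were higher and 1 was lower in limma (med-1, -0.92, adjusted p = 0.024), with 0 higher and 2 lower at an unadjusted p under 0.05. Sperm genes were lower for 9 of 10, larval cuticle genes for 4 of 9 and neuronal genes for 4 of 8, and of 5 body wall muscle genes 0 were higher or lower in limma, and 0 at an unadjusted p under 0.05. The MCM genes had a 6-gene mean of 1.94, 1.03 and 1.12 on the same arrays. The germ cell markers and the MCM genes were both highest on prep 1, the array with the widest spread over all probes. The part of germ cells in the MCM ratios was not tested.

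Other genes of DNA replication, with regulators of entry into S phase and genes of mitosis, were taken from 9 lists with 94 members. All 9 are called replication lists here, and 68 of the members were tested. Of these 68 genes 47 were higher, 21 did not pass and 0 were lower in limma, with 0 lower also at an unadjusted p under 0.05. Of all named genes, 16.1% were higher and 17.9% lower, which is the background for each list below. Their median log2 ratio was 0.75. The median over the 6 MCM genes was 1.61, and over all named genes it was -0.02. The genes with a mean above that of mcm-5 numbered 12, and the genes at or below mcm-3 numbered 6. The mitotic cyclin B gene cyb-3 (1.93 ± 0.61, SD, n = 3) was the 1 gene of these lists with a mean above mcm-2.

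Genes that act before the helicase, in origin recognition and licensing, were higher for 8 of 8 tested, at a median of 0.95. The highest were cdt-2 (1.31 ± 0.39, SD, n = 3), whose product directs the destruction of the loading factor CDT-1, and orc-2 (1.26 ± 0.59), a subunit of the origin recognition complex. The lowest were orc-4 (0.61 ± 0.50, adjusted p = 0.046 in limma) and gmn-1 (0.60 ± 0.46, adjusted p = 0.044), the geminin that inhibits CDT-1. Without prep 1 orc-4 stood at 0.33 (adjusted p = 0.186) and gmn-1 at 0.35 (0.167). The call of orc-4 was also lost without prep 3, at a mean of 0.67 (adjusted p = 0.068), and that of gmn-1 without prep 2, at a mean of 0.63 (0.083), so in these settings the ratio itself was not smaller. The mean over the 6 MCM genes exceeded that of the 8 licensing genes by 0.61, 0.26 and 0.36 on preps 1, 2 and 3, a difference that was not tested.

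Genes whose products join or accompany the helicase at the fork were higher for 8 of 11, with a median of 0.76. The fork protein gene ctf-4 (1.22 ± 0.06, SD, n = 3) and dnsn-1 (1.12 ± 0.22), the counterpart of human DONSON, led them. The 3 that did not pass encode CDC-45 and 2 subunits of GINS, the partners that complete the active helicase. The gene evl-18, the RefSeq symbol of cdc-45, had 0.33, -0.30 and -0.24 on preps 1, 2 and 3 (adjusted p = 0.812 in limma), and the GINS subunit gene sld-5 had 0.40, 0.16 and 0.05 (adjusted p = 0.429). The values of evl-18 lay on both sides of 0. The other GINS gene that did not pass was psf-2 (0.36 ± 0.35, adjusted p = 0.189), while the GINS gene psf-1 was higher (0.76 ± 0.43, adjusted p = 0.014).

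Of 6 genes of the replicative polymerases and primase, 5 were higher, with a median of 1.08. The catalytic subunit genes pole-1 (1.57 ± 0.28, SD, n = 3) of polymerase epsilon and pold-1 (1.46 ± 0.41) of polymerase delta stood highest. Their second subunits stood lowest, with pole-2 at 0.64 ± 0.54 (adjusted p = 0.041 in limma) and pold-2 at 0.48 ± 0.44, which did not pass (0.093). Without prep 1, pole-2 was at 0.33 (adjusted p = 0.170) and 3 genes of this list were higher. Without prep 2, pold-2 passed at 0.69 (0.049).

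Of 10 genes of the sliding clamp, its loader, the single-strand binding protein RPA and lagging strand synthesis, 8 were higher, with a median of 0.83. The nuclease and helicase gene dna-2 (1.81 ± 0.59, SD, n = 3) and the clamp loader gene rfc-1 (1.42 ± 0.33) were highest, within the range of the 5 higher MCM genes. Another loader gene, rfc-2 (0.20 ± 0.08), and rpa-4 (0.01 ± 0.22) did not pass. The clamp loader, like the helicase, is a complex of related ATPases. Its other tested genes, rfc-3 (0.97 ± 0.47) and rfc-4 (0.70 ± 0.43), were higher and lay between rfc-2 and rfc-1.

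Of 3 deoxynucleotide supply genes, rnr-1 (1.49 ± 0.52, SD, n = 3), the large subunit of ribonucleotide reductase, was higher. The dUTPase gene dut-1 (0.49 ± 0.26) and dtmk-1 (0.19 ± 0.07) did not pass, except that dut-1 passed without prep 1 (0.60, adjusted p = 0.027 in limma), and then 2 genes of the list were higher. The gene rnr-2, the small subunit, had values on 2 arrays, 1.54 on prep 1 and 0.84 on prep 3, and was left out of the fit. With probes on at least 2 arrays included it averaged 1.19 (adjusted p = 0.0061 in limma).

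Genes of the machinery that takes the helicase off chromatin were higher for 6 of 8, with a median of 0.73. The paralogous segregase genes cdc-48.2 (1.66 ± 0.46, SD, n = 3) and cdc-48.1 (1.46 ± 0.35), whose products also act in many other pathways and whose probes may bind both transcripts, were highest. The ligase scaffold gene cul-2 (0.40 ± 0.11) and the RING subunit gene rbx-1 (0.26 ± 0.46) did not pass. The gene of LRR-1, which works with CUL-2, was higher (0.75 ± 0.56, adjusted p = 0.021 in limma). Without prep 1, and also without prep 3, 4 genes of this list were higher.

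Of 5 S-phase checkpoint genes 2 were higher, clk-2 (0.77 ± 0.54, SD, n = 3) and the ATR kinase gene atl-1 (0.69 ± 0.45), while mrt-2 (0.03 ± 0.35) and hpr-17 (0.19 ± 0.55) did not pass. Without prep 1 the count was 0 of 5 in limma, with 3 at an unadjusted p under 0.05, clk-2 at 0.48 (adjusted p = 0.073) and atl-1 at 0.67 (0.053). Without prep 2 it was 1, with atl-1 at 0.47 (0.209). Of 10 regulators of entry into S phase 4 were higher. The cyclin E gene cye-1 (1.08 ± 0.34) and the inhibitor gene cki-2 (0.95 ± 0.55) led them, with cki-2 at 0.63 and still past the threshold without prep 1. The kinase gene cdk-2 (-0.15 ± 0.17), whose product partners cyclin E, and cki-1 (-0.15 ± 0.11) did not pass.

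Of 7 mitotic cyclin, CDK and CDC25 genes, 5 were higher, with a median of 0.82. Beside cyb-3, the phosphatase gene cdc-25.1 (1.73 ± 0.59, SD, n = 3), which acts in germ line and early embryo divisions, stood near mcm-7. The genes cyb-1 (0.30 ± 0.33) and cdc-25.4 (0.03 ± 0.07) did not pass. The 6-gene MCM mean exceeded that of these 7 genes by 0.75, 0.27 and 0.31 on preps 1, 2 and 3, which was not tested.

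**Figure D4:**
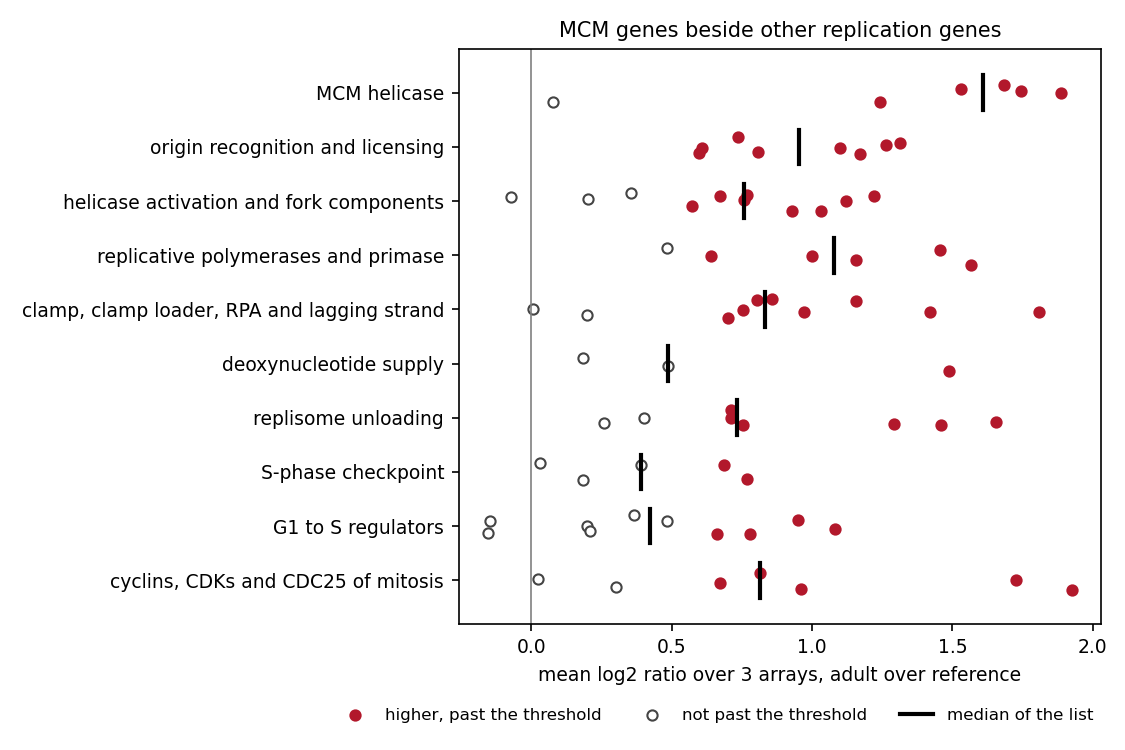
Mean log2 ratio over the 3 arrays (horizontal axis) of each tested gene in the MCM list and in 9 other replication lists (rows); filled points passed the threshold as higher, open points did not pass, and the black bar is the median of the row. The MCM row has the rightmost median, at 1.61, with 5 filled points above 1.2 and mcm-3 as an open point at 0.08.

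The genes with the pattern most like the MCM mean over the 3 arrays were found by the root mean square difference of centred log2 ratios. The 8 nearest lay at 0.040 to 0.067: hsp-4, which encodes the endoplasmic reticulum chaperone BiP, the kinetochore gene him-10, the glycogenin gene gyg-2, ttc-17, F37H8.5, the lectin gene clec-56, toca-2 and cra-1, which is needed to assemble the synaptonemal complex. The members' own distances to it ran from 0.207 for mcm-6 to 1.33 for mcm-3. Against the mean of the 5 higher genes, a profile chosen after the values were seen, mcm-6 lay at 0.104, mcm-4 at 0.120, mcm-7 at 0.157, mcm-2 at 0.285 and mcm-5 at 0.444, and mcm-3 at 1.60. The nearest other genes to that profile were F59E12.1, pie-1, a maternal regulator of germ cell fate, pod-1, cyk-7, era-1, wdr-20, xnd-1 and fubl-2, at 0.034 to 0.082. With 3 arrays a small distance mostly says that a gene has a like mean.

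The protein-coding genes next to the MCM genes, read as an order from the RefSeq table of WBcel235, were set beside them. Of 12 such neighbours 7 were tested, of which 1 was higher and 1 lower, against 16.1% and 17.9% of all named genes. The higher one was nth-1, a DNA repair glycosylase gene next to mcm-5, with 1.40, 0.35 and 0.85 on preps 1, 2 and 3 (adjusted p = 0.0097 in limma). The lower one was F32D1.3, next to mcm-7, with -1.30, -0.38 and -0.32 (adjusted p = 0.036). Both neighbours of mcm-6 and the tested neighbour of mcm-2 did not pass, and no neighbour of mcm-3 or mcm-4 was tested.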

How the data were processed

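The authors deposited 1 table of log2 ratios for 20000 probes, with 1 column per array. Nothing in the labels or the table names its normalization, direction or log base. The base was read from the values: as powers of 2, 100% fell on a grid of 0.001 within 5e-05 (ratios under 3), against 10.7% for natural logs. Median log2 ratios were 0.019, 0.072 and -0.0087 on preps 1, 2 and 3. Which centring the authors used stays unknown. No spot intensities entered the work, so dim spots were not filtered, and the number of arrays limits the precision.

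Of the probes, 15655 have 1 gene in the platform annotation, 198 several and 4147 none. The RefSeq table of WBcel235 gave current symbols for 15569 probes through the gene ID and for 7 through an accession, and the platform symbol was kept for 79. The gene evl-18 stands for cdc-45.

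Each array was centred on its median over the 19710 probes with 3 values. An intercept was fitted with limma 3.58.1 in R 4.3.3 (lmFit, eBayes; 8.957 prior and 2 residual degrees of freedom). Several probes of a gene were averaged, with the largest adjusted p, and a gene counts when 1 of its probes passes. The procedure was also run on simulated data in which far fewer probes changed than passed here. That run therefore says little about the genes that did not pass. Lists are given by counts and medians, without a list test. The members and lists were chosen with earlier results of these data known. The text names the MCM genes, the 2 highest and the 2 lowest genes of each replication list with any called lower, and the 8 genes nearest to the MCM mean. The genes psf-1, psf-2, rfc-3, rfc-4, rnr-2, lrr-1 and med-1 and the neighbouring genes that passed were named after their values were seen. Alternatives were no centring, scaling, quantile normalization, probes on at least 2 arrays, removal of a running median over 201 probes in ID order, robust eBayes, 1 row per gene, and leaving out each prep.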

Additional observations from a re-analysis of the deposited data

How the results depend on the processing

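All 6 MCM genes kept their direction and their side of the threshold under the 10 alternatives, and the count stayed at 5 higher and 0 lower. With a prep left out, means ran from 1.54 to 2.1 for mcm-2, 1.41 to 1.95 for mcm-7, 1.28 to 1.93 for mcm-4, 1.17 to 1.72 for mcm-6, 1.00 to 1.5 for mcm-5 and 0.04 to 0.14 for mcm-3. After removal of the running median along probe IDs mcm-5 was at 0.98. The 6-gene mean of 1.36 ran from 1.07 to 1.53 with a prep left out, and was 1.62 without mcm-3, a setting chosen after the data were seen. The replication lists held 37 to 49 higher and 0 lower genes under the alternatives, in limma. Of the 35 named replication genes, 23 kept their side and sign under every alternative. Signs turned for 5 genes that did not pass. With a prep left out, evl-18 ran from -0.274 to 0.0417, rpa-4 from -0.119 to 0.0962, mrt-2 from -0.0738 to 0.234 and hpr-17 from -0.025 to 0.496. After the running median hpr-17 was at -0.0597 and cdc-25.4 at -0.0786. The cause was not tested. Calls also ended for orc-4 with probes on at least 2 arrays (adjusted p = 0.052, with the mean still at 0.61) and after the running median (0.061), and for gmn-1 after the running median (0.105). The gene dut-1 passed without centring (0.049) and after scaling (0.038) or quantile normalization (0.024). Over all probes, 2495 to 3677 were higher and 2418 to 3793 lower. Each ratio already pairs adult with reference RNA on its array, and no further pairing was possible because the arrays form 1 group. Without spot intensities, signal over background is unknown.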
